A study of Mus musculus with 8 samples.

Results

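The subject is a pair of neighbouring mouse miRNA genes, Mir191 and Mir425, as read by 3 entries of a miRNA array. The entries are mmu-miR-425, mmu-miR-191 and mmu-miR-191* (miR-425, miR-191 and miR-191* from here on), the last being the arm opposite miR-191 in its hairpin, out of 567 mouse miRNAs on the array. They were chosen by name, with the brightness of each and the per-array detection of miR-191* already known, so that their levels and their differences between groups are given as a description, with no test. A 4th product of the same pair of hairpins, miR-425*, is on the array too and is given beside them. Levels of 2 guide arms beside a dim passenger arm were looked for, and the data went against that for miR-191. miR-425 was detected on all 8 arrays, miR-191* on 6 of 8, and miR-191 itself on 0 of 8.

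Dendritic cells were grown from marrow of C57BL/6 mice, an inbred laboratory strain, with the growth factor GM-CSF at 40 ng/ml, and the cells that did not adhere were taken on day 9. The CpG group (4 arrays) then had ODN1826, a class B CpG oligonucleotide, at 10 µM overnight, and the untreated group (4 arrays) had none. CpG oligonucleotides are short DNAs that are sensed by the receptor TLR9. The labels name no allele in any sample, the control is called medium alone in one label and PBS alone in another, and no sample had a control oligonucleotide. The labels do not say whether the numbered replicates came from separate mice or cultures, so that the spread between arrays may be technical in part. The RNA carried a single dye, Cy3, and the 8 arrays of 1 slide lay in 2 rows that each held 2 arrays of each group.

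miR-191 and miR-425 are made from 2 hairpins of one primary transcript of the gene Dalrd3. The enzyme Drosha cuts each hairpin out, Dicer removes its loop, and one arm, the guide, is loaded into an Argonaute protein, where bases 2 to 8, the seed, pair with target mRNAs. The other arm, named with a star on arrays of this age, is mostly degraded. miR-191 is known as a widely expressed miRNA that is often used as a reference RNA in RT-PCR, and both miRNAs are commonly found in blood cells.

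The hairpins are shown because both arms of each can be read on the array. In RefSeq (GRCm38.p6) Mir191 lies on the plus strand at chr9:108568319-108568392 and Mir425 at chr9:108568777-108568861, with 384 bases between them, and both lie within the span of Dalrd3 at chr9:108567484-108572773. Capitals mark the mature arms, the 5′ arm first.
Mir191: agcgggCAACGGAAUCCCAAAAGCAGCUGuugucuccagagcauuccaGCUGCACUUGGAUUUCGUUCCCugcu
Mir425: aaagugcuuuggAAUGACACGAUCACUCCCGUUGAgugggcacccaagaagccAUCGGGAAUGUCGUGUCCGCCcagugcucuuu

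The mature arms follow with their seeds in capitals, under the array's names. RefSeq calls them miR-191-5p, miR-191-3p, miR-425-5p and miR-425-3p.
miR-191: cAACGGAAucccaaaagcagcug
miR-191*: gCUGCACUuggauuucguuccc
miR-425: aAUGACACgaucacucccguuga
miR-425*: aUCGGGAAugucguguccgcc
The 4 seeds all differ, so the pair of genes makes no seed family. Among 1679 mature mouse miRNAs in the RefSeq table, only miR-489-3p shares the seed of miR-425, and no other entry shares the seed of the other 3 arms. The array's miR-489 was detected on 0 of 4 CpG arrays and 0 of 4 untreated arrays.

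Each miRNA is read by several probes of different length, and the array's annotation (mm9) gives the span of each on its target. The probes of one miRNA share one end. From that of miR-191 at base 108470678 of chromosome 9, the shared ends lie 41 bases on for miR-191*, 464 for miR-425 and 503 for miR-425*. The 3′ ends of the mature arms in RefSeq are spaced by the same 41, 464 and 503 bases, so that each span was counted back from the 3′ end. The bases under the longest probe are in capitals here, to show how much of each arm was read.
miR-191: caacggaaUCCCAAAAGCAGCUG
miR-191*: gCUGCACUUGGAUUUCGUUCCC
miR-425: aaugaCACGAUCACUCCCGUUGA
The 4 probes of miR-191 span 12 to 15 bases, which leave out the whole seed. The 4 probes of miR-191* span 18 to 21 bases, the 2 of miR-425 span 17 and 18, and the 3 of miR-425* span 13 to 15. Of 129 mouse miRNAs whose longest span was 15 bases or fewer, as for miR-191, 34 were detected on all 8 arrays (26.4%) and 70 on none (54.3%). Of 189 with a longest span of 16 to 18 bases, as for miR-425, 71 were detected on all 8 (37.6%) and 92 on none (48.7%). Of 242 with 19 bases or more, as for miR-191*, 69 were detected on all 8 (28.5%) and 146 on none (60.3%).

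The array-wide values that touch the members are few. For the 177 mouse miRNAs that every array detected, the 75th percentile of unscaled signal ranged from 157 to 281 units of intensity with CpG and from 101 to 144 untreated, so that the CpG arrays were the brighter ones. Mouse miRNAs detected numbered 213 to 236 on CpG arrays and 191 to 203 on untreated arrays. Negative control spots averaged between -0.518 and 0.901 units per CpG array and between 0.453 and 0.892 per untreated array, with an SD over spots of 1.41 to 2.11. The myeloid markers miR-223, miR-142-3p and miR-142-5p were detected on all 8 arrays. The lymphoid, erythroid, endothelial, stromal, liver and neural markers on the array, 10 in all, were detected on none. Of 4 epithelial markers, miR-200b was detected on all 8 arrays, miR-200c and miR-141 on all 4 CpG arrays and 1 untreated array, and miR-200a on none, with mean total signals of 3.44 to 9.995 units on CpG arrays and 2.51 to 8.64 on untreated arrays. Their part in the members' values was not tested. In RNA of bulk cells, fewer cells of a type and less of an RNA per cell cannot be told apart.

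miR-425, a guide arm, was the one bright member. Its mean processed signal over both probes, after the scanner software's background subtraction and before any scaling, was 77.0, 112, 98.6 and 143 units on the CpG arrays (replicates 1 to 4), and 62.5, 78.1, 91.1 and 71.8 units on the untreated arrays. The CpG arrays averaged 108 ± 27.6 units and the untreated arrays 75.9 ± 12.03 (SD, n = 4 each), and the groups overlapped, since CpG replicate 1 lay below untreated replicates 2 and 3. All 160 spots of miR-425 were marked by the scanner software as well above background and 0 were saturated. Its total signal was 12.2 to 12.5 times its file error on the CpG arrays and 12.04 to 12.3 times on the untreated arrays.

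Signals were then divided by each array's 75th percentile and put on a log2 scale, on which 0 is that percentile. miR-425 read -1.02, -1.17, -0.87 and -0.97 on the CpG arrays, and -0.70, -0.67, -0.66 and -0.75 on the untreated arrays. Every CpG array was now below every untreated array, the opposite order to the unscaled means. The group means were -1.01 ± 0.13 with CpG and -0.69 ± 0.04 untreated (SD, n = 4 each), a log2 difference of -0.32 (SE 0.13 from the limma fit over 212 miRNAs), or 0.803-fold. As background, 42 of the 212 tested miRNAs (19.8%) lay lower with CpG without overlap, and 15 (7.08%) higher. The limma test called 14.2% of the 212 at an adjusted p under 0.05, of which 7.55% of the 212 were higher and 6.6% lower. Without scaling, 84 of 212 (39.6%) lay higher with CpG without overlap and 0 (0%) lower. The median log2 difference over the 212 was -0.19, and miR-425 lay 0.12 below it (-0.12). Within slide row 1 the difference was -0.28 and within row 2 it was -0.36, with 2 arrays of each group in each row.

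Both probes of miR-425 gave differences of like size. The probe of 18 bases averaged 164 ± 44.1 units on CpG arrays and 116 ± 18.8 on untreated arrays, and that of 17 bases 51.2 ± 11.2 and 35.3 ± 5.42 units in the same order (SD, n = 4 each). After scaling, their log2 differences were -0.33 (SE 0.13) and -0.27 (SE 0.12). The brightness of 2 probes is not a comparison of amounts.

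The direction of miR-425 depended on how the arrays were scaled. Without scaling it was 0.48 higher with CpG on the log2 scale (SE 0.24), and in the authors' deposited table, which is unscaled, also 0.48 (SE 0.23). Scaled on hur, a set of 4 bright control features, it was 0.24 higher (SE 0.12). It was lower with the 75th percentile over all miRNAs, the median, median of ratios, quantile, cyclic loess and normexp with quantile normalization, where the value nearest 0 was that of median of ratios (-0.0726, SE 0.0929). Over all 212 miRNAs the median difference was 0.60 without scaling and 0.36 on the hur features, both above the values of miR-425.

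**Figure D1:**
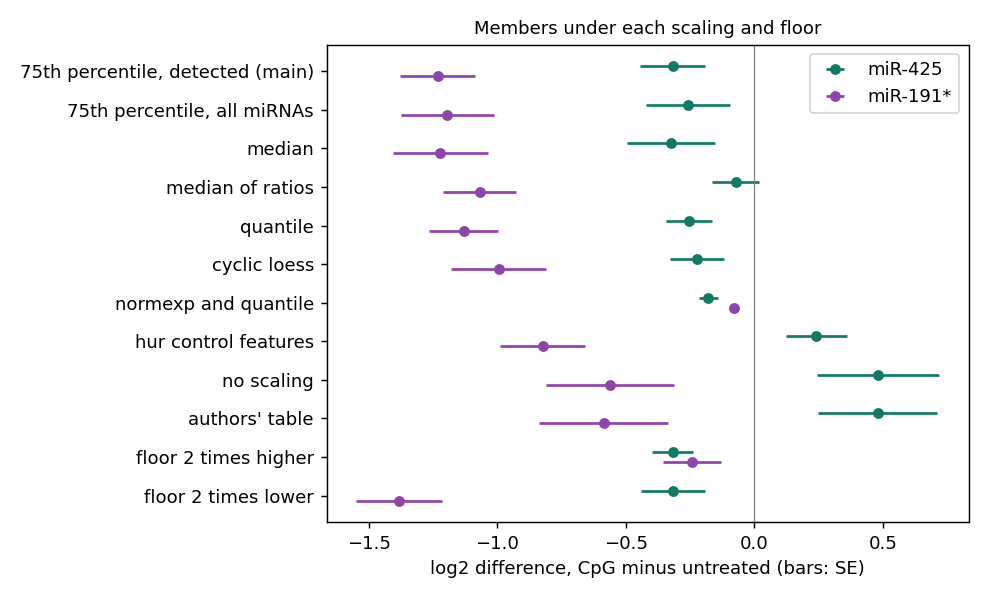
The log2 difference, CpG minus untreated, of miR-425 (green) and miR-191* (purple) under 12 scalings, background corrections and floors, with bars for the SE of the limma fit. miR-425 lies at -0.32 as reported and at 0.48 without scaling, while miR-191* stays below 0 in all 12 and comes near it with normexp (-0.0789) and with a floor 2 times higher (-0.24). Normexp adds an offset of 50 units, which draws the differences of dim miRNAs such as miR-191* toward 0.

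miR-425 was among the steadier miRNAs over the 8 arrays. Its scaled log2 values had an SD of 0.19 over all arrays, the 20th lowest of the 212 tested, whose median SD was 0.36. The miRNAs whose values followed it most closely were found by centring each on its own mean over the 8 arrays and taking the root mean square difference, for which the median over all was 0.314. The closest were miR-350 (0.0813), let-7g (0.0891), miR-17* (0.0904) and miR-142-3p (0.0956). let-7g belongs to the let-7 family, miR-17* is the passenger arm of miR-17, and miR-142-3p is a miRNA of blood cells. Their log2 differences were -0.32 for miR-350, -0.37 for let-7g, -0.38 for miR-17* and -0.20 for miR-142-3p, given with no test because closeness to miR-425 chose them. Without scaling all 4 changed sign, to 0.48 for miR-350, 0.42 for let-7g, 0.42 for miR-17* and 0.60 for miR-142-3p.

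miR-191, the arm known as abundant in many cells, gave no signal above background. Its mean processed signal was -0.52, 0.31, -0.95 and -0.49 units on the CpG arrays (replicates 1 to 4), and -0.56, 0.05, 0.16 and 0.04 units on the untreated arrays. These values straddle 0 in both groups and lie within the spread of the negative control spots. Its 4 probes ranged from -3.09 to 3.001 units over the 8 arrays, and 1 of its 160 spots was marked well above background. The highest ratio of signal to error of any of its probes was 1.42, where detection takes more than 3. Neither group has a level here, so that no fold between them is given. That miR-191 was not detected is a reading of these probes and does not show that the cells lacked it. Whether the short span plays a part was not tested.

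miR-425*, the arm opposite miR-425, was also not detected on any array. Its mean processed signal lay between -0.84 and 0.32 units on CpG arrays and between 0.43 and 0.76 on untreated arrays, and its highest ratio of signal to error was 0.998.

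**Figure D2:**
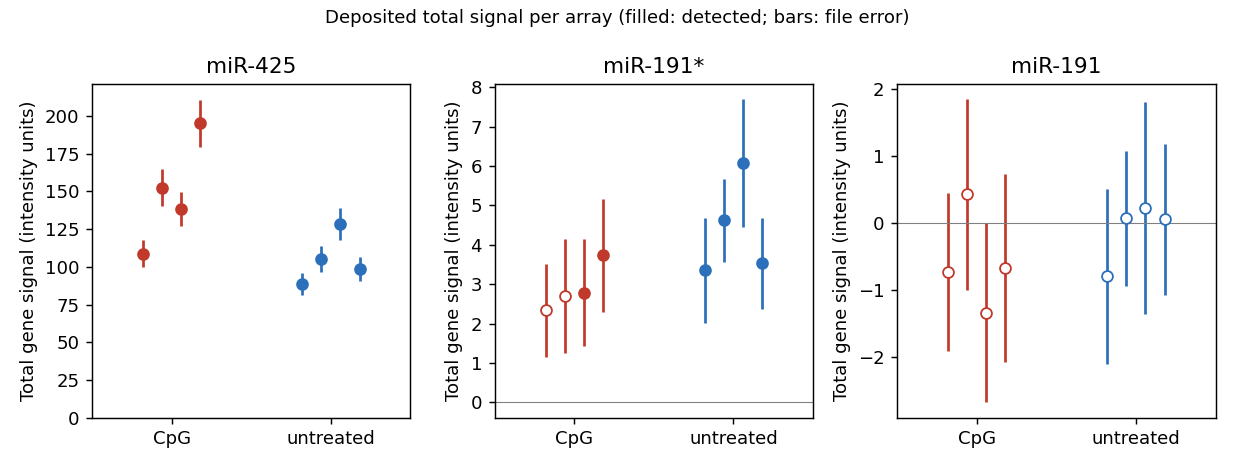
Deposited total signal of miR-425, miR-191* and miR-191 on each array, in intensity units, with the file's own error as bars and filled points where the miRNA was detected. miR-425 is at 109 to 195 units on CpG arrays and 88.5 to 129 on untreated arrays, miR-191* at 2.34 to 3.74 and 3.35 to 6.08 in the same order, and miR-191 is around 0.

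miR-191*, the passenger arm, was read at a few units. Its mean processed signal was 1.65, 1.98, 1.98 and 2.74 units on the CpG arrays (replicates 1 to 4), and 2.36, 3.42, 4.30 and 2.57 units on the untreated arrays. Before scaling the groups overlapped, since CpG replicate 4 lay above untreated replicates 1 and 4. The deposited total signal was 2.89 ± 0.60 units with CpG and 4.39 ± 1.25 untreated (SD, n = 4 each). The error that the files give for 1 array was 1.19 to 1.44 units on CpG arrays and 1.05 to 1.63 on untreated arrays, about the size of the difference between the group means.

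One probe carried most of that signal. The probe of 21 bases averaged 6.56 ± 1.32 units on CpG arrays and 7.83 ± 1.72 on untreated arrays (SD, n = 4 each). Per array it read 5.15, 6.57, 6.20 and 8.33 units with CpG, and 7.84, 7.61, 10.04 and 5.84 units untreated, so that CpG replicate 4 was above all untreated arrays but replicate 3. The probe of 20 bases averaged 1.596 ± 0.56 and 2.84 ± 1.28 units with CpG and untreated, that of 19 bases 0.985 ± 0.82 and 1.81 ± 1.61, and that of 18 bases -0.79 ± 0.59 and 0.18 ± 0.98 (SD, n = 4 each). All 3 shorter probes had ratios of signal to error under 3 on every array, up to 2.87. Only the probe of 21 bases had spots well above background, 1 of 20 on CpG arrays and 6 of 20 on untreated arrays.

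**Figure D3:**
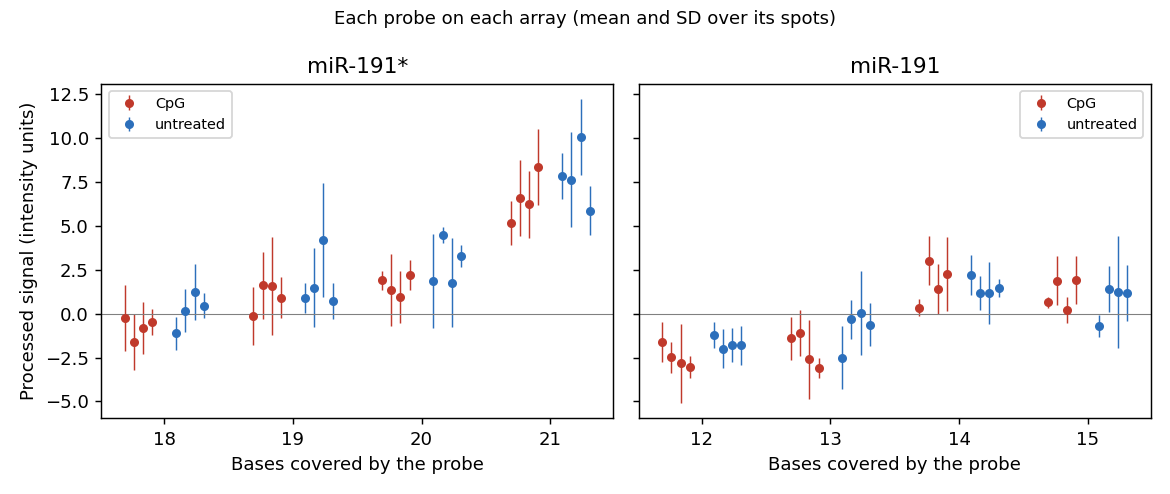
Processed signal of each probe of miR-191* (18 to 21 bases) and miR-191 (12 to 15 bases) on each array, as mean and SD over its spots, with CpG arrays left of untreated ones. The probe of 21 bases lies at 5.15 to 8.33 units on CpG arrays and 5.84 to 10.04 on untreated arrays, and the other 7 probes lie between -3.09 and 4.45 units.

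The detection flag of miR-191* was decided by that probe. Over 567 mouse and 10 viral miRNAs and 8 arrays, the flag equalled a ratio above 3 of signal to error in at least 1 probe for 4616 of 4616 values. For miR-191* the ratio of the probe of 21 bases was 2.95, 2.99, 3.09 and 3.75 on the CpG arrays (replicates 1 to 4), and 3.92, 4.52, 4.09 and 3.36 on the untreated arrays. CpG replicates 1 and 2 thus lay just under the limit of 3 and replicate 3 just over it. The count of 2 of 4 CpG arrays against 4 of 4 untreated arrays rests on these narrow margins. Of all 567 mouse miRNAs, 6 were detected on fewer CpG than untreated arrays, miR-191* among them, and 64 on more.

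**Figure D4:**
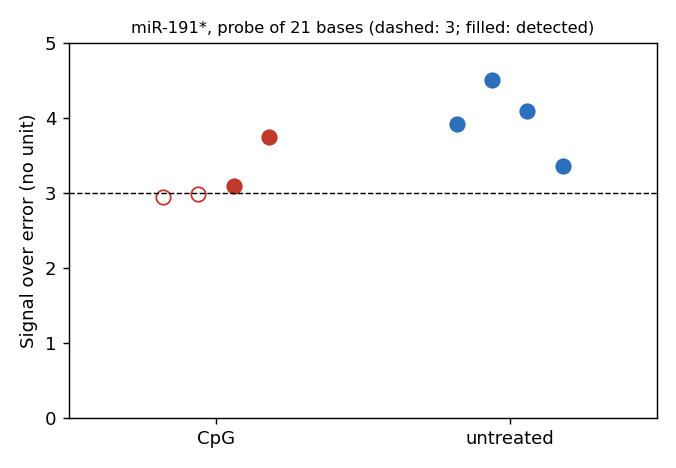
Ratio of signal to error for the probe of 21 bases of miR-191* on each array, with filled points where the miRNA was detected and a dashed line at 3. CpG arrays lie at 2.95 to 3.75 and untreated arrays at 3.36 to 4.52, and the 2 open points lie just under the line.

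After scaling, miR-191* read -6.55, -6.55, -6.51 and -6.55 on the CpG arrays, and -5.42, -5.18, -5.06 and -5.55 on the untreated arrays. All CpG arrays were below all untreated arrays, which held for 42 of the 212 tested miRNAs (19.8%). However, 3 of the 4 CpG values of miR-191*, replicates 1, 2 and 4, are the floor of -6.55 and not a measurement. To set the floor, the dimmest detected miRNA was taken on each array and the median of the 8 scaled signals was used, and this lay above the value of miR-191* on CpG replicate 4, where it was detected. The fitted log2 difference was -1.23 (SE 0.14), or 0.425-fold, between -6.54 ± 0.02 with CpG and -5.30 ± 0.22 untreated (SD, n = 4 each). The SD with CpG is small because of the floor, and the SE with it. The fit took miRNAs detected on at least 3 arrays of a group. miR-191* met this in the untreated group alone (4 arrays, against 2 with CpG). With a floor 2 times lower the difference was -1.38 (SE 0.17) and with one 2 times higher -0.24 (SE 0.11). In the authors' deposited table, which has neither scaling nor this floor, it was -0.59 (SE 0.25). With the probe of 21 bases alone it was -1.05 (SE 0.18) after scaling. Within slide row 1 it was -1.06 and within row 2 it was -1.40.

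The ratio of miR-425 to miR-191* on the same array uses no scaling and, taken from the processed signals, no floor. On the log2 scale it was 5.54, 5.82, 5.64 and 5.71 on the CpG arrays and 4.72, 4.51, 4.40 and 4.80 on the untreated arrays. It averaged 5.68 ± 0.12 with CpG and 4.61 ± 0.19 untreated (SD, n = 4 each), a difference of 1.07, and the groups did not overlap. The ratio compares the groups only, since the brightness of 2 probe sets is not a ratio of amounts. It shows unequal change of the 2 readings, not which of them changed. With the probe of 21 bases in place of all 4, the difference was 0.73. As background, 6 of 210 tested miRNAs with positive signal on every array (2.86%) were lower relative to miR-425 with CpG without overlap. miR-191* is one of these 6. In the other direction 25 (11.9%) were higher, and the median shift of the ratio was -0.12. miR-191* was chosen with its detection known and passed the filter through the untreated arrays alone. These shares therefore describe the arrays and do not test miR-191*. The total signal of miR-191* was only 1.87 to 2.61 times its file error with CpG and 2.51 to 4.395 times untreated, which limits this ratio. Its processed signal was 1.65 to 2.74 units with CpG and 2.36 to 4.30 untreated. Negative control spots averaged -0.518 to 0.901 and 0.453 to 0.892 in the same order, with an SD over spots of 1.41 to 2.11. Array brightness cancels in the ratio only where both readings scale with brightness, which was not tested.

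**Figure D5:**
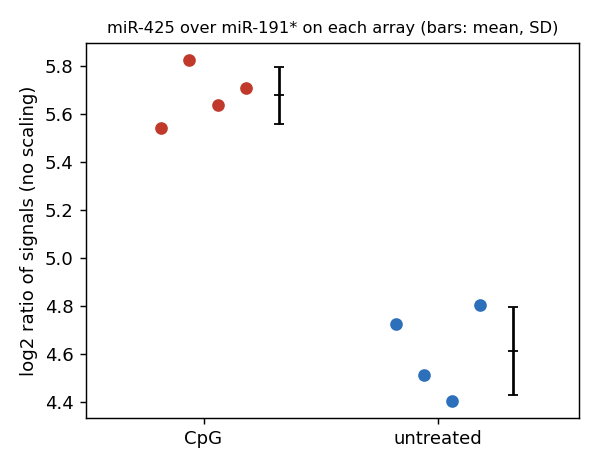
The log2 ratio of the processed signals of miR-425 and miR-191* on each array, without scaling or floor, with bars for the group mean and SD. CpG arrays lie at 5.54 to 5.82 and untreated arrays at 4.40 to 4.80.

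The miRNAs whose scaled values were most like those of miR-191* were further from it than those near miR-425. They were miR-139-5p (root mean square difference 0.296), miR-30c (0.341), miR-484 (0.37) and miR-192 (0.371), against a median over all of 0.619. Their log2 differences were -1.01, -0.81, -0.66 and -0.62 in that order. These are given with no test, since closeness to miR-191*, with its low CpG values at the floor, chose miRNAs that were lower with CpG. Without scaling the differences were -0.21, -0.0107, 0.14 and 0.18.

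miR-191* can be set beside the other passenger arms on the array. Of 114 entries named with a star, 39 were detected on at least 1 array and 23 on all 8. Besides miR-191*, 27 could be tested, with a median log2 difference of 0.35, against -0.19 over all 212 miRNAs, and a range from -0.50 to 0.86. The 4 that passed, miR-135a* (0.86), miR-21* (0.76), miR-22* (0.74) and miR-29b* (0.84), rose, and 0 fell (limma adjusted p = 0.0284, 0.0405, 0.0227 and 0.0458). Over all 212 miRNAs 7.55% rose and 6.6% fell. The number of star arms that rose depended on the scaling, with 16 without scaling, 14 in the authors' deposited table, 10 on the hur features, 2 with the median or cyclic loess, and 1 with quantile normalization or normexp. Those nearest to miR-191* in untreated signal were miR-30e*, let-7g*, miR-30b* and miR-18a*. Their differences were -0.27, 0.14, 0.51 and -0.08, and none passed (limma adjusted p = 0.394, 0.784, 0.321 and 0.81). A miRNA could be tested if at least 3 arrays of a group detected it. Among the 27, miR-30e* and let-7g* (3 CpG and 2 untreated arrays each) and miR-302c* (3 and 0) met this through the CpG arrays alone. Without scaling miR-30e* and miR-18a* changed sign, to 0.51 and 0.72. Of the 114 star arms, 12 were detected on more CpG than untreated arrays and 2 on fewer, miR-191* and miR-138*. Over all 567 mouse miRNAs 64 were detected on more and 6 on fewer, so this split is not particular to star arms. The star arms' median was positive under the 12 scalings, corrections and floors for which lists were tabulated, at 0.033 with normexp. The offset of 50 units in normexp draws the differences of dim miRNAs toward 0. The median over all 212 was positive too without scaling (0.6), in the authors' deposited table (0.604), on the hur features (0.36) and with median of ratios (0.051). One star arm fell with quantile normalization and 1 with a floor 2 times higher, where 10 and 34 of all 212 fell.

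miR-425 can be set beside miRNAs proposed as reference RNAs for RT-PCR, the use for which miR-191 is best known. Of 14 listed, 13 could be tested, with a median log2 difference of -0.41 against -0.19 over all 212, and a range from -0.66 to -0.03. The 3 that passed, miR-16 (-0.49), miR-26a (-0.60) and miR-484 (-0.66), fell, and 0 rose (limma adjusted p = 0.0375, 0.0375 and 0.0227), where 6.6% of all 212 fell. The brightest of the list were miR-24 (-0.35), miR-23a (-0.56), let-7a (-0.47) and miR-16, and the first 3 did not pass (limma adjusted p = 0.2, 0.0566 and 0.0566). Without scaling these 4 changed sign, to 0.45, 0.24, 0.33 and 0.31. The list's median was 0.385 unscaled, 0.383 as deposited by the authors and 0.145 relative to hur, and in each of these 1 rose and 0 fell. Over all 212 the medians were 0.6, 0.604 and 0.36 in that order, and 88, 87 and 70 rose. No member was called with the 75th percentile over all miRNAs, the median or median of ratios, and 1 fell with quantile normalization, cyclic loess or normexp. Among all 212, those that rose numbered 16, 11 and 17 in the former settings, and those that fell 7, 7 and 5. In the latter settings 10, 9 and 5 of all 212 fell. With a floor 2 times higher 7 fell, where 34 of all 212 fell. With an SD of 0.19 over the 8 arrays after scaling to the 75th percentile, miR-425 varied less than 12 of the 13, whose median SD was 0.29. A value set relative to any of these miRNAs moves with its difference between the groups.

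The TLR-responsive list shows what the same arrays read for miRNAs known to respond to Toll-like receptor ligands. The median of the 11 tested, out of 12 listed, was -0.04, and 4 rose while 0 fell, where 7.55% of all 212 rose. With the median 3 rose and without scaling 7, and 8 rose both on the hur features and in the authors' deposited table. Over all 212, 11 rose with the median, 88 without scaling, 70 on the hur features and 87 in the authors' deposited table. miR-155, which Toll-like receptor signalling induces, read 4.22 ± 0.20 with CpG and 2.30 ± 0.48 untreated on the scaled log2 scale (SD, n = 4 each). Its fitted difference was 1.92 (limma SE 0.24, adjusted p = 0.000956). The other called members were miR-222 (1.14), miR-147 (0.97) and miR-146a (0.92) (limma adjusted p = 0.0111, 0.0227 and 0.0355). Of the brightest members, miR-21 (-0.11), miR-146b (-0.07) and miR-221 (0.42) did not pass (limma adjusted p = 0.575, 0.742 and 0.269), and all 3 rose without scaling, by 0.69, 0.73 and 1.22 (limma adjusted p = 0.0396, 0.0286 and 0.00543). Unscaled, 88 of all 212 rose and 0 fell, so those 3 rises are not particular to the list. The list's median was -0.046 with median scaling and 0.76 without scaling, against -0.2 and 0.6 over all 212. The lists were chosen with results of these arrays known and describe them only.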

How the data were processed

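Per the file headers, arrays were read with Agilent Feature Extraction 9.5.3.1. The deposited spot values used are processed signals, an intensity with local background and spatial trend removed and no normalization across arrays. The deposited per-miRNA summaries give a total intensity, its error and a detection flag. The authors' series table of 260 miRNAs holds 2 of the 3 members, and its 2080 values equalled the total signal within 0.1%. In that count, a small constant in the authors' table also counted as equal where the total signal was no higher than it. The submitters' processing notes name limma only.

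Spots without outlier flags were averaged per probe and probes per miRNA. Each array was scaled to its 75th percentile of the 177 mouse miRNAs found on every array, floored at 0.0107 and put on a log2 scale. The 212 miRNAs detected on at least 3 of 4 arrays of a group were fitted with limma 3.58.1 in R 4.3.3 (two-sided moderated test, Benjamini-Hochberg adjustment across the 212) at a threshold of 0.05; the fit was tested on simulated data. miR-191 missed that filter, so its planned difference was not computed. miR-191* met it through the untreated arrays alone. Named miRNAs were the members, the 4 nearest to each by root mean square difference, and up to 4 per list (brightest, or for star arms nearest to miR-191* in untreated signal). Called list members outside that rule were named after their values were seen. The members and lists were chosen with earlier results of these data known. Sequences are RefSeq's (GRCm38.p6), and all 4 arms matched. Python 3.11.15 with matplotlib 3.10.9 drew the figures. The number of arrays limits precision. The labels do not say what same-numbered arrays share, and the arrays were fitted as unpaired.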

Additional observations from a re-analysis of the deposited data

Results flagged for a closer look

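Of 26 groups of 4 arrays checked for the members, 2 had a lone array apart from the rest. About 1 group in 20 would do so by chance. The scaled log2 signal of miR-191* on CpG replicate 3 was -6.508 against -6.545 on the other 3, which are all at the floor. The processed signal of miR-191 on untreated replicate 1 was -0.561 units against a mean of 0.086 on the other 3, all below detection.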

How the results depend on the processing

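All values are log2 differences, CpG minus untreated, unless named as counts. miR-425 was 0.48 without scaling and in the authors' deposited table, 0.24 on the hur features, -0.0726 with median of ratios, -0.22 with cyclic loess and -0.18 with normexp. Normexp adds an offset of 50 units, so its values for dim miRNAs, miR-191* among them, are drawn toward 0. miR-191* was -0.56 without scaling, -0.59 in the authors' deposited table, -0.82 on the hur features, -1.07 with median of ratios, -0.995 with cyclic loess, -0.0789 with normexp, -0.24 with a floor 2 times higher and -1.05 with its probe of 21 bases alone, which also gave 0.73 for the ratio of miR-425 to miR-191*. Leaving out 1 array gave -0.36 to -0.26 for miR-425, -1.31 to -1.15 for miR-191* and 0.997 to 1.13 for the ratio. The range for miR-191* is held narrow by the floor and does not show stability. CpG replicates 1, 2 and 4 all lie at the floor, and leaving out any of them gave the same -1.2295. Without the 2 CpG arrays where it was not detected, miR-191* was at -1.22, with CpG replicate 4 still at the floor. Probes alone, the ratio and that last setting were chosen after seeing the data.

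The count of called miRNAs was 30 (16 higher, 14 lower), 88 without scaling, 87 in the authors' deposited table, 72 on the hur features, 18 with the median, 19 with quantile normalization, 12 with normexp, 48 with a floor 2 times higher and 3 with no filter. Leaving out 1 array gave 5 to 68, with 5 without untreated replicate 2 or CpG replicate 3, 11 without CpG replicate 2, 12 without untreated replicate 1, 17 without untreated replicate 4 and 68 without CpG replicate 1. The share of higher calls was 88 of 88 without scaling, 70 of 72 on the hur features, 17 of 22 with median of ratios, 16 of 23 with the 75th percentile over all miRNAs, 11 of 18 with the median, 11 of 20 with cyclic loess, 9 of 19 with quantile normalization, 7 of 12 with normexp, 12 of 30 with detection on all 8 arrays and 14 of 48 with a floor 2 times higher. Same-numbered arrays lay side by side in a slide row, and their deviations from the group means correlated at 0.277, -0.259, 0.25 and 0.096, which leaves pairing unsettled. With a replicate block 38 were called (16 higher, 22 lower) and miR-425 and miR-191* stayed at -0.32 and -1.23 (SE 0.12 and 0.13). The SE of miR-191* is kept small by the floor here too. With slide row as a block 28 were called.

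Among the other named miRNAs, 59 values changed sign, 356 kept direction and side of the threshold, 44 no longer passed and 18 newly passed. Without scaling and in the authors' deposited table, in that order, the changed values were 0.476 and 0.474 for miR-350, 0.425 and 0.423 for let-7g, 0.421 and 0.419 for miR-17*, 0.604 and 0.602 for miR-142-3p, 0.144 and 0.142 for miR-484, 0.183 and 0.181 for miR-192, 0.689 and 0.687 for miR-21, 0.727 and 0.725 for miR-146b, 0.451 and 0.449 for miR-24, 0.236 and 0.234 for miR-23a, 0.333 and 0.331 for let-7a, 0.311 and 0.309 for miR-16, 0.509 and 0.522 for miR-30e*, and 0.72 and 0.718 for miR-18a*. On the hur features they were 0.236 for miR-350, 0.185 for let-7g, 0.181 for miR-17*, 0.364 for miR-142-3p, 0.449 for miR-21, 0.487 for miR-146b, 0.211 for miR-24, 0.0929 for let-7a, 0.0708 for miR-16, 0.284 for miR-30e* and 0.48 for miR-18a*. In the order median of ratios, quantile, cyclic loess and normexp, miR-142-3p was at 0.0491, 0.0757, 0.0233 and 0.0726. miR-146b was at 0.172, 0.185, 0.0982 and 0.165 in that order. miR-21 was at 0.134 with median of ratios and 0.205 with cyclic loess, miR-18a* at 0.166 with median of ratios and 0.0056 with normexp, and let-7g* at -0.0156 with a floor 2 times higher. Leaving out 1 array gave -0.135 to 0.0087 for miR-146b, -0.193 to 0.0428 for miR-18a* and -0.132 to 0.375 for let-7g*. The cause of these changes was not tested. Signal over background limits miR-191*, miR-191 gave no value under any alternative, and the filter for detection on all 8 arrays gave none for miR-191*.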
